A study of Homo sapiens with 6 samples.

Results

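OAS1, IFIT1, IFIT2, IFIT3, ISG15, MX1, IRF1, IRF9 and IFI6 are 9 genes that cells switch on in response to interferon. They were chosen by symbol from the 60605 genes of the deposited table, and each symbol matched 1 row. RNA was sequenced from Huh-7, a human hepatoma line, and the study compared pectolinarigenin, a plant flavone, with vehicle. Cells of both groups had first been loaded with oleic acid (100 µM, 24 h) to raise their lipid content and were then starved. The 3 control libraries came from cells given DMSO (0 µM pectolinarigenin), and the 3 treated libraries from cells given 100 µM for 24 h. Whether libraries of one group are separate cultures is not in the labels, so a p-value here reflects the spread among these 6 libraries alone, which may be technical. No group without oleic acid and no group given interferon is among the samples.

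As background, type I and type III interferons bind their receptors and activate JAK kinases, which phosphorylate STAT proteins. STAT2 is among those that join IRF9 in the complex ISGF3, which binds a promoter element called the ISRE. Interferon gamma acts at another element, the GAS, and IRF1 is a GAS-driven transcription factor that can itself act on ISRE-like sites. Hepatocytes respond to these cytokines, and most of the 9 genes encode antiviral proteins.

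The 9 genes did not move in one direction. OAS1, which makes 2'-5' oligoadenylates in response to double-stranded RNA, was 2.46-fold higher with pectolinarigenin, and IRF1 was 1.44-fold higher. IFIT1, which binds viral RNA with a foreign cap, was 2.34-fold lower, the related IFIT2 1.72-fold lower, and IFI6, an antiviral membrane protein, 1.69-fold lower. ISG15, IFIT3, IRF9 and MX1 did not pass the edgeR test, though ISG15 passed in limma. Values of IFIT2, IFIT3 and MX1 are from a second fit with a looser filter. The IFIT2 call was lost when the second control or the second treated library was left out. In the second fit, which tested all 9, 2 were called higher and 3 lower, beside 23.6% and 22.7% of all genes. These counts lie near the shares of all genes. Counts of 13 of the 15 interferon ligand genes were 0 throughout.

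The promoters of the genes that differed are shown first, with the letters of interferon elements that each holds. RefSeq promoter windows (GRCh38.p14, 250 bases before to 50 after each start) matched 8 of the 9 genes, in 11 windows. IFIT2, called lower, is not among them. Capitals mark the letters found by the search, on either strand, with 20 bases on each side, and sequences read 5′ to 3′ on the gene's own strand. The ISRE core was searched as 2 GAAA repeats with any 2 bases between them, and it reads as TTTC repeats where it lies on the opposite strand. The GAS was searched as TTCNNNGAA, and the NF-kB element by its usual consensus. A closer pair of repeats, GAAANGAAA, was added after the OAS1 window had been read. Stretches from the called genes come first, those of 3 genes that were not called follow.
OAS1, chr12:112906774-112906973, plus strand: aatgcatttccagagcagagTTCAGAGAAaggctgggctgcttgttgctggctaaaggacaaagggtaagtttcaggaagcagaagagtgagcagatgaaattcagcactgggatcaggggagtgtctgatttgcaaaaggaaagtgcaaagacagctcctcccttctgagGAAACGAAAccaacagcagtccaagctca
IRF1, chr5:132490794-132490917, minus strand: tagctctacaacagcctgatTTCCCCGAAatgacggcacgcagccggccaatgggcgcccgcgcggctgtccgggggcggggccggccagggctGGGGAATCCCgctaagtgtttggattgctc
IFIT1, chr10:89392487-89392549, plus strand: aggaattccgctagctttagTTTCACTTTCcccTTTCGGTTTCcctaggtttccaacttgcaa
IFI6, chr1:27672256-27672368, minus strand: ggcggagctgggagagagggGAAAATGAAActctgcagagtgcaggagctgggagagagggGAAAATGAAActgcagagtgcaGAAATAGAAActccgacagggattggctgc
ISG15, chr1:1013364-1013419, plus strand: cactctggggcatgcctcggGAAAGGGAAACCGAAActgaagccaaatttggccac
IFIT3, chr10:89327821-89327904, plus strand: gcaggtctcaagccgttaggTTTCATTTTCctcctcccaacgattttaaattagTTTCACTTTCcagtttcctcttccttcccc
IRF9, chr14:24161182-24161230, plus strand: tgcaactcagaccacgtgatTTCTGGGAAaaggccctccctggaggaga

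OAS1 and IRF1, the genes called higher, each held a GAS match and no match to the ISRE core as searched. That search cannot find the closer pair of GAAA repeats that OAS1 held, so OAS1 is not shown to lack an ISRE. In OAS1 the GAS letters began 168 bases upstream of the start and the closer repeat pair 17 bases upstream. In IRF1 the GAS letters began 124 bases upstream and an NF-kB match 50 bases upstream. IFIT1 and IFI6, called lower, held the ISRE core and no GAS match: IFIT1 had 2 cores, 116 and 103 bases upstream, and IFI6 had 3, at 156, 115 and 93 bases. The split did not extend to the other genes, since ISG15 and both windows of IFIT3 held ISRE cores, and IRF9 a GAS match 63 bases upstream, without a call. The 2 ISG15 cores overlap each other, and 1 core in the second IFIT3 window, not shown, overlaps a closer pair. MX1 had 3 windows, with an ISRE core in 2 of them, a GAS match that overlaps the core in 1, an NF-kB match in 2 and the closer pair in 2, where it overlaps a core once.

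**Figure D1:**
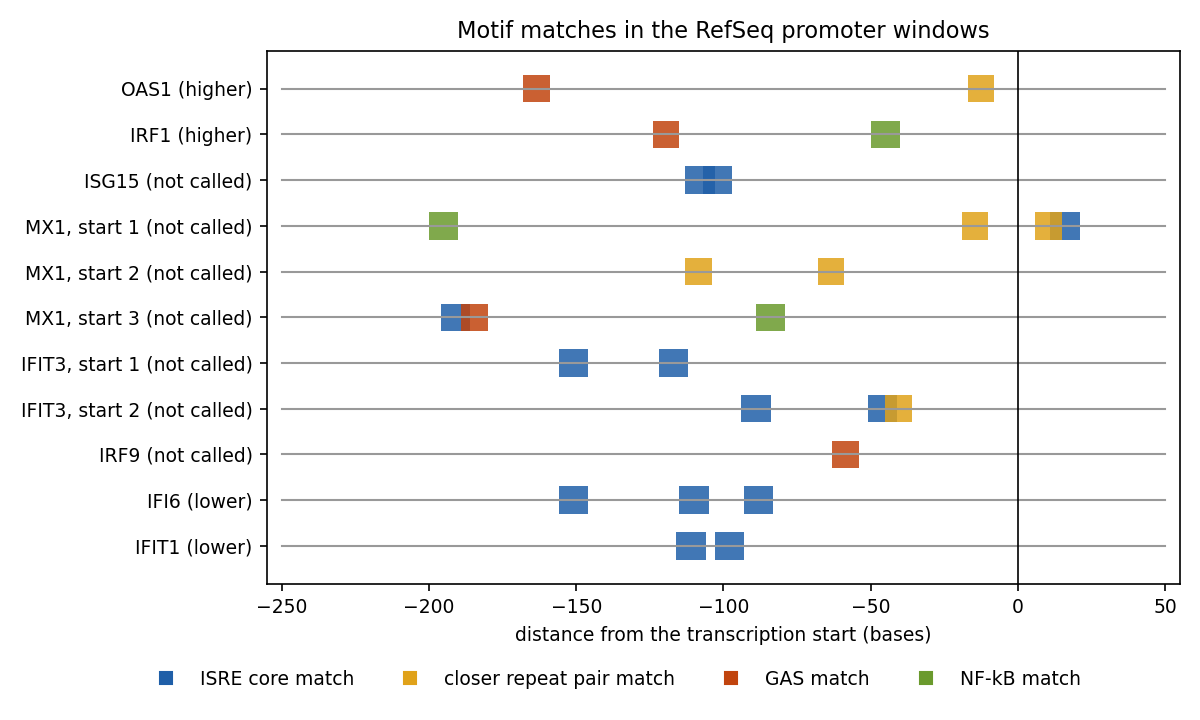
Motif matches (coloured blocks, drawn to length) in the RefSeq promoter windows of 8 genes, by distance in bases from the transcription start; the call in the fit that tested all 9 genes is in brackets. Blue ISRE blocks appear in the windows of IFIT1, IFI6, ISG15, IFIT3 and MX1, and red GAS blocks in those of OAS1, IRF1, IRF9 and MX1.

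These letters are common, and a match is a description, not a binding site. Of 35116 windows, 3.57% held the ISRE core, 3.12% the closer pair, 7.66% the GAS letters and 11.3% the NF-kB consensus. Among tested genes with a window, the 329 with an ISRE core were called higher in 29.2% and lower in 30.7% of cases. The 8644 without one were called higher in 27.8% and lower in 26.7%. The 751 genes with GAS letters were called higher in 23.2% and lower in 28.6%, against 28.3% and 26.7% of the 8222 without them. GAS letters were thus no more often found with a higher call across all genes, and ISRE cores were found with both directions.

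Library totals ranged from 15140022 to 20311261 counts, and no pair of libraries of a group agreed within sampling noise. The third treated library stood apart, with a chi-square per degree of freedom of 10.5 and 13.9 against the other treated libraries, while no other pair within a group exceeded 5.40. Hepatocyte-lineage markers were present in all libraries. Their summed FPKM (counts scaled by gene length and library total) was 12240 to 12440 in control and 8900 to 9675 in treated libraries. In the first fit described below, 8 of 10 fell and 2 were not called, beside 25.3% of all tested genes called lower. In the second fit 6 fell and 4 were not called, beside 22.7%. Of 12 leukocyte markers, 2 were tested (LYZ rose, CD14 fell), and the list's summed FPKM was 43.3 to 43.9 in control libraries and 55.2 to 79.2 in treated libraries, mostly LYZ. The defining leukocyte marker PTPRC had at most 2 counts in a library, and MS4A1 and CLEC4C had 0. Of 8 stromal and endothelial markers, 1 was tested and fell (PECAM1), DCN was at 0, and their summed FPKM was 2.81 to 3.12 in control libraries and 1.29 to 1.52 in treated libraries. The second fit tested 4 leukocyte markers (1 higher, 2 lower, 1 not called) and 3 stromal and endothelial markers, all lower. The part of these marker shifts in the results below was not tested.

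The test was the quasi-likelihood test of edgeR on the counts, with a call at an adjusted p of at most 0.05. Genes were tested at a mean FPKM of at least 1, which 6 of the 9 passed and IFIT2, IFIT3 and MX1 did not. By the deposited FPKM, OAS1 and IRF1 reached that mean only through the treated libraries, and IFIT1 and IRF9 only through the control libraries. Counts over the genes that passed therefore support nothing. The filter also depends on the gene lengths used. With exon lengths of the GENCODE 29 annotation, control means were 1.55 for OAS1 and 1.50 for IRF1. IFIT3 would then have passed, at 1.30 in control and 1.09 in treated libraries. In this fit 2 of the 9 genes were called higher, beside 25.3% of all 12829 tested genes, and 2 were called lower, beside 25.3%. A second fit on the 16446 genes kept by the filterByExpr rule of edgeR, a minimum of about 10 counts in 3 libraries, tested all 9 genes. There 2 were called higher, beside 23.6% of all genes, and 3 lower, beside 22.7%. The median log2 fold change of the 9 genes was -0.28 in that fit, beside 0.0047 over all genes. With 9 genes, these counts lie near the shares of all genes. Values for IFIT2, IFIT3 and MX1 are from the second fit and all others from the first.

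OAS1 (ENSG00000089127; GENCODE 29, GRCh38, chr12:112906777-112933222, plus strand) had counts of 150, 151 and 103 in the control libraries, in the order of their numbers, and 303, 265 and 464 in the treated ones. Its normalized CPM (counts scaled to library size with TMM factors) were 8.19, 8.20 and 6.87 in control and 18.5, 15.9 and 22.8 in treated libraries. The lowest treated library lay above the highest control library by close to the whole control level, and the third treated library was the highest of all. The log2 fold change was 1.30 (SE 0.134, 95% interval 1.01 to 1.59, n = 3 per group, adjusted p = 1.97e-06, edgeR), and without that library it was 1.15 (adjusted p = 5.85e-09). In bulk RNA, more transcript in each cell and more cells with the transcript cannot be told apart, here or for any gene below.

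OAS1 lies in a cluster with OAS3 and OAS2, which encode related synthetases. OAS3 starts 31575 bases from OAS1 and had counts of 246, 296 and 207 in control and 459, 332 and 537 in treated libraries. It rose by 0.78 on the log2 scale (SE 0.121, adjusted p = 8.26e-05). OAS2 had 1, 1 and 1 counts in control and 0, 2 and 0 in treated libraries, under the floor of 3 counts. The 2 detected genes of the cluster were thus both higher, and neither group overlapped the other in OAS3 counts.

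IRF1 (ENSG00000125347; chr5:132481609-132490798, minus strand) had 215, 185 and 206 counts in control and 280, 295 and 329 in treated libraries. Its normalized CPM were 11.7, 10.1 and 13.7 in control and 17.1, 17.8 and 16.2 in treated libraries. The treated libraries lay close together and above all control libraries, and the third control library was nearest to them. IRF1 differed by a log2 fold change of 0.53 (SE 0.112, 95% interval 0.29 to 0.77, adjusted p = 0.00115, edgeR). An antisense transcript, C5orf56, shares exonic bases with IRF1 and had 43 to 54 counts in control and 45 to 62 in treated libraries. The strand setting of the counting is not given in the sources used here, so reads of the pair could not be told apart.

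IFIT1 (ENSG00000185745; chr10:89392546-89406486, plus strand) had 115, 130 and 98 counts in control and 54, 49 and 47 in treated libraries. Its normalized CPM were 6.28, 7.06 and 6.54 in control and 3.30, 2.95 and 2.31 in treated libraries. Every treated library was below every control library by a wide margin, and the third treated library was the lowest. IFIT1 had a fitted log2 fold change of -1.23 (SE 0.164, 95% interval -1.58 to -0.88, adjusted p = 2.28e-05, edgeR), and -1.08 without that library.

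IFIT2 (ENSG00000119922; chr10:89283694-89309276, plus strand), whose product also binds RNA, had 48, 65 and 49 counts in control and 37, 21 and 38 in treated libraries. Normalized CPM were 2.62, 3.53 and 3.27 in control and 2.26, 1.26 and 1.87 in treated libraries. The groups did not overlap, but the highest treated and the lowest control library were close. The log2 fold change was -0.78 (SE 0.233, 95% interval -1.27 to -0.29, adjusted p = 0.0115, edgeR). The call was lost without the second control library (-0.68, adjusted p = 0.0603) and without the second treated library (-0.59, adjusted p = 0.0545). LIPA, which encodes lysosomal acid lipase and lies on the opposite strand, shares exonic bases with IFIT2. LIPA had 726 to 896 counts in control and 490 to 622 in treated libraries and fell by 0.57 on the log2 scale (SE 0.0763, adjusted p = 2.23e-05). Its part in the IFIT2 counts was not tested.

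IFIT3 (ENSG00000119917; chr10:89327894-89340971, plus strand), which encodes a partner of IFIT1, had 60, 66 and 54 counts in control and 49, 51 and 50 in treated libraries. Its normalized CPM were 3.28, 3.59 and 3.60 in control and 3.0, 3.07 and 2.46 in treated libraries. The treated libraries were all lower, but the log2 fold change of -0.28 did not pass (SE 0.183, 95% interval -0.67 to 0.10, adjusted p = 0.218, edgeR). IFIT5, the other gene of the cluster with counts, had 49 to 68 in control and 48 to 70 in treated libraries, and its log2 fold change was 0.05 (adjusted p = 0.852). The IFIT cluster therefore ranged from a fall of IFIT1 to overlapping values of IFIT5.

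IFI6 (ENSG00000126709; chr1:27666061-27672218, minus strand) had 64, 46 and 48 counts in control and 31, 33 and 32 in treated libraries. In normalized CPM this was 3.50, 2.50 and 3.20 in control and 1.9, 1.99 and 1.57 in treated libraries. All treated libraries were lower, and the second control library was nearest to them. IFI6 had a fitted log2 fold change of -0.76 (SE 0.215, 95% interval -1.22 to -0.30, adjusted p = 0.00854, edgeR). The adjusted p was 0.0497 without the first control library.

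ISG15 (ENSG00000187608; chr1:1001138-1014540, plus strand), a ubiquitin-like protein that is joined to other proteins, had 75, 91 and 69 counts in control and 86, 96 and 108 in treated libraries. Scaled to CPM, the values were 4.10, 4.94 and 4.60 in control and 5.26, 5.78 and 5.31 in treated libraries. The groups did not overlap. The log2 fold change of 0.26 did not pass in edgeR (SE 0.145, 95% interval -0.05 to 0.57, adjusted p = 0.150) but passed in limma on log2(FPKM + 1), at 0.26 with an adjusted p of 0.0234. ISG15 therefore stood on either side of the threshold depending on the test.

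IRF9 (ENSG00000213928; chr14:24161053-24166565, plus strand), the DNA-binding subunit of ISGF3, had 70, 65 and 74 counts in control and 57, 57 and 60 in treated libraries. Its normalized CPM were 3.82, 3.53 and 4.93 in control and 3.49, 3.43 and 2.95 in treated libraries, so that the nearest libraries of the groups nearly touched. The log2 fold change was -0.31 (SE 0.18, 95% interval -0.70 to 0.07, adjusted p = 0.165, edgeR). AL136295.5, on the same strand, shares exonic bases with IRF9 and had 8 to 16 counts in a library.

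MX1 (ENSG00000157601; chr21:41420304-41459214, plus strand), a GTPase that traps the nucleocapsids of RNA viruses, was the least expressed of the 9. It had 17, 27 and 13 counts in control and 17, 20 and 19 in treated libraries. The groups overlapped, and the log2 fold change was -0.04 (SE 0.307, 95% interval -0.69 to 0.61, adjusted p = 0.923, edgeR). An interval of that width does not show that MX1 was unaltered. Its neighbour MX2 was far more abundant, with 1544 to 1916 counts in control and 1369 to 1750 in treated libraries, and fell by 0.23 on the log2 scale (SE 0.0639, adjusted p = 0.00708).

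**Figure D2:**
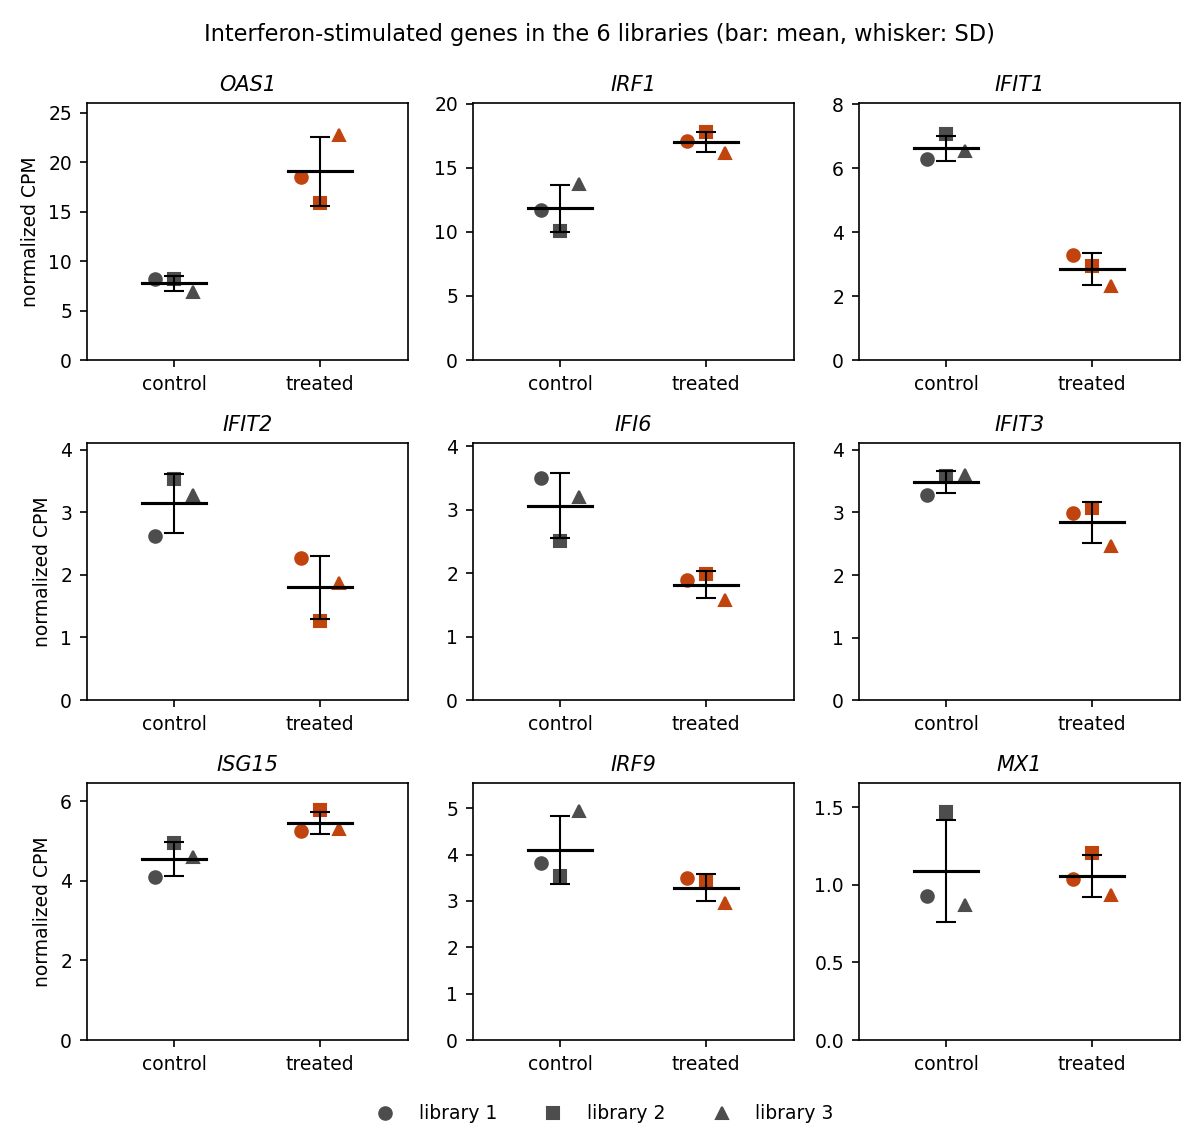
Normalized CPM (linear axes from 0) of the 9 genes in each control and treated library; symbols give the library number, bars the group mean and whiskers the SD (n = 3). OAS1 lies at 6.87 to 8.20 in control and 15.9 to 22.8 in treated libraries, IFIT1 at 6.28 to 7.06 and 2.31 to 3.30, and only MX1 has overlapping groups.

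By normalized CPM alone, 3 of the 9 genes had all treated above all control libraries (OAS1, IRF1, ISG15), beside 26.7% of the 16446 genes. All treated libraries lay below all control libraries for 5 (IFIT1, IFIT2, IFIT3, IRF9, IFI6), beside 28.5%.

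**Figure D3:**
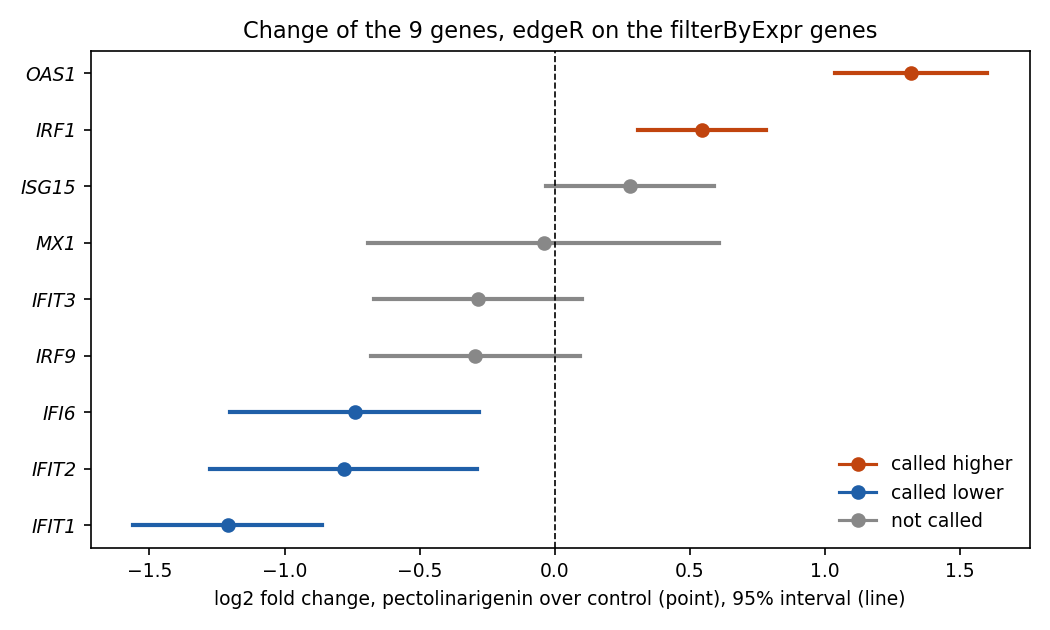
Log2 fold change of pectolinarigenin over control (points) with 95% intervals (lines) for the 9 genes, from the edgeR fit on the filterByExpr genes. The intervals of OAS1 and IRF1 lie above 0, those of IFIT1, IFIT2 and IFI6 below 0, and the other 4 include 0.

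Ratios of counts within a library do not depend on scaling between libraries. The ratio of OAS1 to IFIT1 counts was 1.30, 1.16 and 1.05 in control and 5.61, 5.41 and 9.87 in treated libraries. The ratio of IRF1 to IRF9 counts was 3.07, 2.85 and 2.78 in control and 4.91, 5.18 and 5.48 in treated libraries. The ratio of OAS1 to ISG15 counts was 2.0, 1.66 and 1.49 in control and 3.52, 2.76 and 4.30 in treated libraries. None of these ratios overlapped between groups. For OAS1 to IFIT1 and for IRF1 to IRF9 this follows from the normalized CPM, which moved apart in opposite directions, so it is no further support. No share of such ratios over other gene pairs was computed.

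Per gene length, the 9 levels differed widely. By mean FPKM over the 6 libraries, ISG15 lay above 48.7% of the 12829 tested genes and IFI6 above 25.4%, IRF1 above 4.63%, and OAS1, IRF9 and IFIT1 above less than 1%. All tested genes have a mean of at least 1, and OAS1, IRF9 and IFIT1 lie just over that cutoff (1.022 to 1.035). Their place is thus set by the cutoff, and these shares depend on gene length as the order below does. Mean FPKM in control was 5.18 ± 0.495 (SD, n = 3) for ISG15, 3.23 ± 0.538 for IFI6, 1.42 ± 0.0862 for IFIT1, 1.13 ± 0.206 for IRF9 and 0.953 ± 0.150 for IRF1. The other means were 0.720 ± 0.108 for IFIT2, 0.680 ± 0.0346 for IFIT3, 0.587 ± 0.0577 for OAS1 and 0.0600 ± 0.0173 for MX1. Of neighbours in this order, IFIT1 and IRF9, IRF9 and IRF1, IRF1 and IFIT2, and IFIT2 and IFIT3 had overlapping libraries, and the remaining neighbours were apart. In treated libraries the mean FPKM of OAS1 was 1.48 ± 0.252, at rank 3 from rank 8, and that of IFIT1 was 0.627 ± 0.117, at rank 6 from rank 3. The order depends on the gene length used. The deposited FPKM imply a length for OAS1 that is 2.63 times its exons in GENCODE 29, for MX1 2.07 times, for IFIT3 1.91 times and for IRF1 1.57 times. With GENCODE 29 lengths, OAS1 ranked 3 in control and 2 in treated libraries. MX1 was last by either length.

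The rest of the pathway was followed through fixed lists, in the fit on genes at a mean FPKM of at least 1. In that fit 25.3% of all tested genes were called higher and 25.3% lower. Of the 15 ligand genes, none was tested. IFNA5 had 1 count in the third treated library and IFNL2 1 in the third control library, and the other 13, with IFNB1 and IFNL1 among them, had 0. A count of 0 allows up to 0.148 to 0.198 CPM in a library, for counting error only. Of 6 receptor genes, 4 were tested and 0 were called by edgeR with TMM scaling or by DESeq2, and 2 had an unadjusted p under 0.05 in edgeR. This count was not stable: edgeR called 1 higher without scaling factors, without the first treated library or without the third. IFNAR1, a subunit of the type I receptor, differed by 0.02 on the log2 scale (SE 0.0672, adjusted p = 0.830). In the second fit, which tested all 6, its partner IFNAR2 was called lower (-0.43, adjusted p = 0.0498) and IFNGR2, a subunit of the interferon gamma receptor, higher (0.24, adjusted p = 0.0455). IFNGR2 was named after its values had been seen.

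Among the JAK, STAT and IRF transducers, 9 of 13 were tested, 1 rose, 3 fell and 5 were not called. Of all tested genes, 25.3% were called higher and 25.3% lower. The median log2 fold change of the list was -0.16, beside 0.00071 over all tested genes. STAT2 had 1423, 1524 and 1206 counts in control and 934, 1023 and 1035 in treated libraries, and fell by 0.51 on the log2 scale (SE 0.0696, adjusted p = 2.74e-05). IRF2, a repressor at IRF sites, fell by 0.39 (SE 0.0873, adjusted p = 0.00170). STAT2, a partner of IRF9 in ISGF3, was thus lower. The 1 higher call was lost when any control library or the first treated library was left out, and lower calls were 5 without that treated library. IRF3, which acts downstream of viral RNA sensors, had a log2 fold change of -0.10 (adjusted p = 0.133), and IRF7 one of -0.59 in the second fit (adjusted p = 0.0996).

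Of 11 inhibitors of interferon signalling, 10 were tested, 1 rose, 4 fell and 5 were not called (median -0.05, and -0.11 in the second fit). These calls stand beside 25.3% of all tested genes in each direction. The higher calls were 3 without scaling factors or without the first treated library, and 2 in limma or without the first control library. SOCS3, which blocks JAK kinases, had 248, 306 and 249 counts in control and 77, 67 and 99 in treated libraries. It fell by 1.77 on the log2 scale (SE 0.129, adjusted p = 7.83e-08). USP18, which removes ISG15 from proteins and holds back IFNAR2 signalling, fell by 0.82 (SE 0.184, adjusted p = 0.00178), and the phosphatase gene PTPN6 by 0.30 (SE 0.0932, adjusted p = 0.0147). SOCS1, tested in the second fit, had a log2 fold change of -0.11 (adjusted p = 0.802). The 3 SOCS3 counts of treated libraries lay far below those of control libraries.

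Of 15 nucleic acid sensing genes, 7 were tested, 2 rose, 2 fell and 3 were not called (median 0.14). Over all tested genes, 25.3% were called in each direction. The median was -0.17 over the 11 genes of the second fit, and lower calls were 1 in that fit, in DESeq2, in limma, without scaling factors and without any 1 library other than the first treated one. MAVS, the mitochondrial adaptor of RNA sensors, fell by 0.43 (SE 0.0565, adjusted p = 1.81e-05). TRAF3, an adaptor below MAVS, rose by 0.34 (SE 0.0838, adjusted p = 0.00359), and TRIM25, a ubiquitin ligase of the same pathway, by 0.27 (SE 0.0584, adjusted p = 0.00130).

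A list of 59 other interferon-stimulated genes gave 26 tested, of which 3 rose, 12 fell and 11 were not called, with a median of -0.16. Lower calls were 12 of 26 there, beside the 25.3% of all tested genes given above. The second fit tested 40, with 4 higher and 13 lower, beside 23.6% and 22.7% of all genes, and a median of -0.04. On the 26 genes of the first fit, limma called 7 lower in place of 12. PARP9 had 855, 885 and 693 counts in control and 456, 452 and 424 in treated libraries, and fell by 0.90 (SE 0.094, adjusted p = 2.19e-06). PARP14, of the same family of ADP-ribosyltransferases, fell by 0.83 (SE 0.0947, adjusted p = 5.31e-06). IFITM3, which blocks viral entry, fell by 0.31 (SE 0.0975, adjusted p = 0.0161). OAS3 was among the 3 that rose. BST2, the virion tether, had 4, 2 and 5 counts in control and 0, 0 and 0 in treated libraries, too few to be tested.

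Of 24 genes of antigen presentation and known IRF1 targets, 9 were tested, 3 rose, 2 fell and 4 were not called (median -0.09). The share of all tested genes called was 25.3% in each direction. WARS1, a tryptophanyl-tRNA synthetase gene induced by interferon gamma, rose by 0.58 (SE 0.0764, adjusted p = 2.01e-05). HLA-E fell by 0.54 (SE 0.0702, adjusted p = 1.66e-05) and TAPBP, the tapasin gene of peptide loading, by 0.47 (SE 0.0608, adjusted p = 1.78e-05). The called genes of this list thus lay on both sides of 0.

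**Figure D4:**
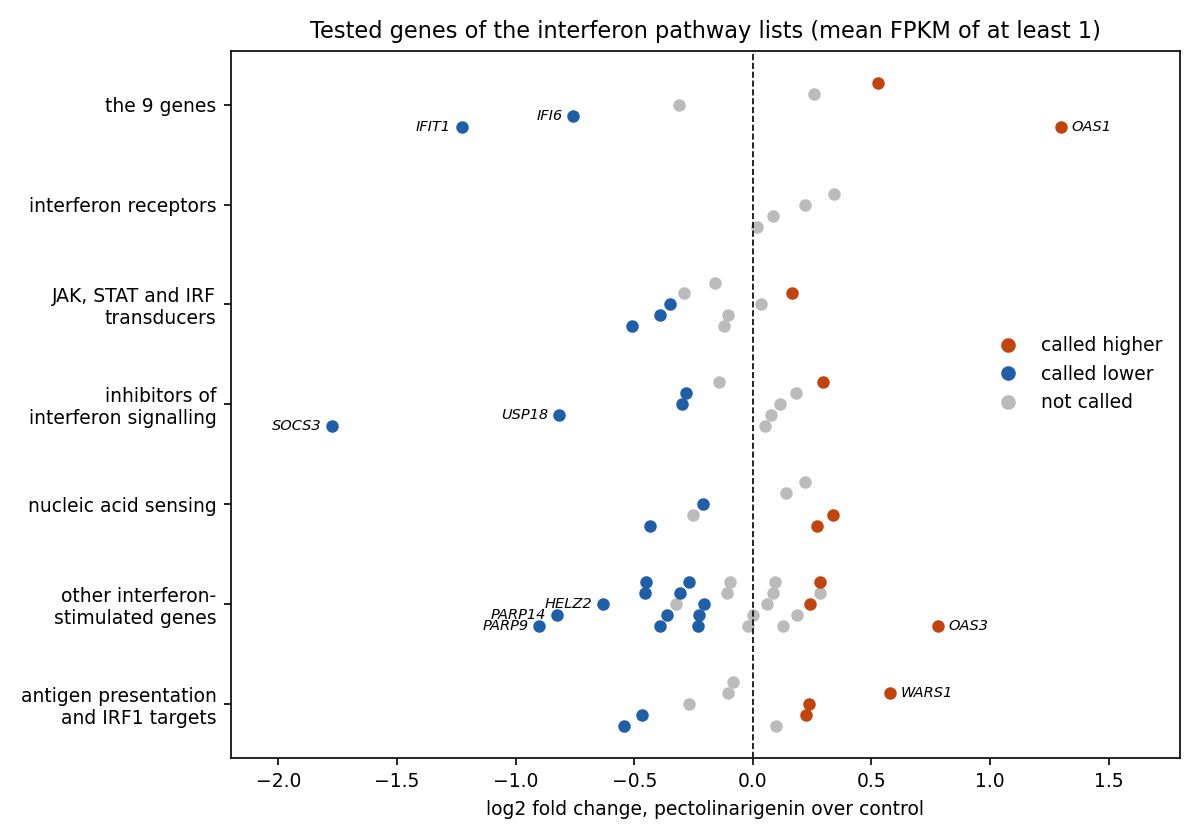
Log2 fold change of pectolinarigenin over control for each tested gene of the 9 and of 6 pathway lists (mean FPKM of at least 1), coloured by call; the vertical offset within a row only separates points. SOCS3 lies farthest left at -1.77 and OAS1 farthest right at 1.30, and the list of other interferon-stimulated genes has 12 points called lower and 3 called higher.

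Genes near the 9 were also counted. Of 76 genes that start within 100 kb of one of them, 27 were tested, 5 rose, 5 fell and 17 were not called, beside 25.3% of all tested genes called in each direction. Of the 16 tested neighbours of IRF9, 3 rose, 1 fell and 12 were not called, while IRF9 did not pass the test. PSME1 and PSME2, subunits of the proteasome activator that are also on the antigen presentation list, rose by log2 fold changes of 0.24 and 0.23. IPO4 also rose (0.69), and DCAF11 fell (-0.29). These neighbours were named after their values had been seen. No neighbour of IRF1 was tested in that fit, and the 2 tested in the second fit were not called.

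As a description with 6 libraries, the genes whose log2(CPM + 1) followed each tested gene most closely were listed. For OAS1 these were SRRT (Pearson r = 0.9995) and ZNF654 (0.9987), for IFIT1 MIR548XHG (0.9995) and ARNTL2 (0.9991), and for IFI6 MAP3K21 (0.9964) and FRG1JP (0.9929). For IRF1 they were COQ10B (0.9898) and CDC37L1 (0.9882), for ISG15 GTPBP6 (0.9913) and EMD (0.9909), and for IRF9 ORC1 (0.9933) and SIL1 (0.9803). All points share libraries and group structure. The genes named are those with the highest r in a search over all tested genes that bear a symbol, and shared control was not tested. At an r of at least 0.98, OAS1 had 313 such genes and IFIT1 386, while IRF1 had 10, ISG15 5 and IRF9 2.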

How the data were processed

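RNA sequencing of 3 control and 3 pectolinarigenin libraries was deposited by the authors as 1 table of raw counts and FPKM values for 60605 genes. The submitters' processing notes name cutadapt 1.9.1, HISAT2 2.0.1, HTSeq 0.6.1 and GRCh38, while annotation release and strand setting are not given there or in the labels. The deposited FPKM values were used for levels and as a filter (mean of at least 1).

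Counts were tested with the edgeR 4.0.16 quasi-likelihood test (R 4.3.3), with TMM scaling, 2-sided p-values, Benjamini-Hochberg adjustment over all tested genes and a threshold of 0.05. IFIT2, IFIT3 and MX1 were under that filter, so a second fit used filterByExpr, a choice made after the data were seen. Total counts were 15140022 to 20311261 per library, and 3 counts correspond to 0.148 to 0.198 CPM. On simulated counts with 2-fold changes, 93 of 100 higher and 92 of 100 lower genes were recovered among 12829 genes, and 88 and 82 among 16446. Of the unchanged genes, 6 and 12 were called. The simulation gave all genes the same dispersion, changed few genes and had no library that stood apart. It therefore checks that the code works and does not measure recovery of smaller changes or error rates in these data.

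The 9 genes and all lists were chosen with earlier results of these data known. Named genes were the 9, up to 3 called genes with the largest changes in each list, and STAT2, IFNAR1, IFNAR2, USP18, SOCS1, IRF3, IRF7, OAS2, OAS3, IFIT5, MX2, IFITM3 and BST2. Some genes that the rule names are not reported here, and other genes named were chosen after their values were seen. Promoter sequences are from RefSeq (GRCh38.p14), and positions from GENCODE 29. Alternatives were DESeq2 1.42.0, limma 3.58.1 on log2 FPKM, other scalings and filters, a replicate block and each library left out.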

Additional observations from a re-analysis of the deposited data

How the results depend on the processing

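OAS1, IRF1, IFIT1 and IFI6 kept their direction and their call under each of the 14 alternatives that tested them. With a mean FPKM of at least 5, 4098 of 7144 tested genes were called in place of 6486 of 12829. Of the 9 genes, 0 were called higher and 0 lower because ISG15 alone of them was still tested. Of the other interferon-stimulated genes, 1 of 18 tested was called higher in place of 3 of 26. In limma with either pseudocount, 7 other interferon-stimulated genes were called lower in place of 12, and the cause was not tested. MX1 changed sign in limma, to 8.5e-05 with a pseudocount of 1 and 0.0035 with 0.1, and leaving out single libraries gave -0.17 to 0.24, above 0 without the second control library (0.24) or the third treated library (0.04). The replicate block, which treats equal library numbers as pairs, called 6540 genes, changed no call of the 9 and called 2 receptor genes higher in place of 0. Deviations from the group mean correlated at 0.0369, 0.0100 and 0.0334 for equal numbers and at -0.0353 to -0.00426 for unequal ones. Values this small cannot settle whether equal numbers are pairs, and the labels do not say. Library totals alone, without TMM, raised all log2 fold changes by a median of 0.0377. IFIT3 and MX1 rest on 13 to 66 counts in a library, and the 95% intervals of their log2 fold changes span -0.67 to 0.10 and -0.69 to 0.61.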
